A study of Arabidopsis thaliana with 6 samples.

Results

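WRKY transcription factors were followed in Arabidopsis thaliana seedlings that carry a rice SUB1 gene. The members were the genes to which the array annotation gives a single symbol of WRKY plus a number, each read by the probe set chosen by the highest mean value over all arrays, a measure that uses no difference between groups. The rule found 6 genes, WRKY6 (AT1G62300), WRKY20 (AT4G26640), WRKY22 (AT4G01250), WRKY42 (AT4G04450), WRKY47 (AT4G01720) and WRKY53 (AT4G23810), among 13350 genes with a probe set of their own. Each had 1 probe set, so the step on brightness had nothing to choose between. RefSeq names 72 Arabidopsis genes WRKY by symbol or synonym, and the others were not analysed here apart from ZAP1, described among the other observations. The annotation used here lists no gene for 8730 probe sets, which may include further WRKY genes, so counts out of 6 describe the named genes and not the family.

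Whole 7-day-old seedlings of the Col-0 ecotype, left untreated, were harvested around noon. After 3 days of stratification they were grown with 1% sucrose at 23 °C, in days of 16 h light and nights of 8 h. The 35:SUB1A group was stably transformed with 35S:FLAG-SUB1A and the 35:SUB1C group with 35S:FLAG-SUB1C, and WT was wild-type Col-0. Each group had 2 biological replicates, each on 1 ATH1 array. SUB1A and SUB1C are ethylene response factors (ERFs), transcription factors from the submergence tolerance locus Sub1 of rice, and the 35S promoter drives them in nearly all tissues. The labels name no empty-vector group, and the sources used here do not give whether a transgenic group is 1 line or several, so an effect of the transgene cannot be told apart from other differences between the lines.

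WRKY proteins are plant transcription factors named after a conserved peptide stretch of their DNA-binding domain, which sits beside a zinc finger and binds the W-box element of promoters. Many are switched on soon after a microbe is detected, through receptor kinases, calcium and MAP kinase cascades, and many bind the promoters of other WRKY genes. Others act in leaf senescence, nutrient supply and seed development. The family is split by domain structure: WRKY20 belongs to group I, with a pair of WRKY domains, WRKY6, WRKY42 and WRKY47 to group IIb, WRKY22 to group IIe and WRKY53 to group III.

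The arrays were alike in distribution, with medians of 7.60 to 7.63 and lower quartiles of 5.55 to 5.59 on the log2 scale. The correlation across probe sets, which do not count as replicates, was 0.998 to 0.999 within a group, against 0.989 to 0.992 between 35:SUB1A and WT arrays and 0.995 to 0.996 between 35:SUB1C and WT arrays. Of the measured tissue markers, the root gene PYK10 averaged 14.07 and the light-harvesting gene LHCB4.2 averaged 14.26 in WT. The root hair genes EXPA7, at 7.59 and 7.42, and EXPA18, at 7.55 and 7.43, lay below the medians of the WT arrays. LHCB4.2 was the only green tissue marker measured, and whether the labelled tissue matches its markers was not tested. Values are log2 RMA values throughout, a difference is that between group means and is followed by ± its standard error from a limma fit (SE, n = 2 arrays per group), and "rose", "fell", "higher" and "lower" are used of differences with a Benjamini-Hochberg adjusted p under 0.05 over all probe sets. Precision is limited by having so few arrays, and levels of different genes are not compared because each probe set has its own response.

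The comparison of 35:SUB1A with WT asked which WRKY transcripts differ in untreated seedlings that carry the SUB1A transgene. The level of either transgene was not examined here. WRKY53, WRKY6, WRKY47 and WRKY22 rose, WRKY20 and WRKY42 did not pass the test, and none fell. Thus 4 of 6 WRKY genes were higher, where 9.47% of all probe sets were higher in the same fit (20.2% were called in either direction). The median difference was 0.57 over the 6 genes and 0.01 over all probe sets. In whole seedlings, a change in the share of cells that carry a transcript and a change in its amount per cell cannot be told apart. In the same arrays 4 of 6 genes had both 35:SUB1A values above both WT values, where 30.6% of all probe sets did.

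WRKY53, known as an early regulator of leaf senescence that also acts in defence, had 6.64 and 6.62 in 35:SUB1A seedlings, against 5.36 and 5.83 in WT seedlings. Both 35:SUB1A arrays lay above both WT arrays. The difference was 1.04 ± 0.13, or 2.05-fold, with an adjusted p of 0.000961, and 0.756% of all probe sets had a larger rise. The WT values lay around the lower quartile of the arrays, where the response of a probe set is compressed, and the deposited table holds no detection calls.

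WRKY6, known for its roles in senescence, defence and the repression of the phosphate exporter gene PHO1, had 9.21 and 9.09 in 35:SUB1A seedlings, against 8.05 and 8.33 in WT seedlings. The groups did not overlap, and the gap between the lowest 35:SUB1A array and the highest WT array was wider than the spread inside either group. The difference was 0.96 ± 0.10, or 1.95-fold, with an adjusted p of 0.000404.

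WRKY22, which acts downstream of the MAP kinase cascade of flagellin perception and is known from submergence-induced immunity in Arabidopsis, had 7.35 and 7.44 in 35:SUB1A seedlings, against 6.89 and 6.88 in WT seedlings. Replicates lay close together in both groups. The difference of 0.51 ± 0.06, or 1.43-fold, had an adjusted p of 0.00102, and 3.11% of all probe sets had a larger rise.

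WRKY47, a group IIb gene, had 8.37 and 8.22 in 35:SUB1A seedlings, against 7.35 and 8.01 in WT seedlings. The groups did not overlap, but the WT arrays differed from each other by 0.66. The difference was 0.62 ± 0.18, or 1.53-fold, with an adjusted p of 0.0407, and it rested on WT replicate 1. Without WT replicate 1 it was 0.29 with an adjusted p of 0.0842, and without WT replicate 2 it was 0.95. The call also ended without either 35:SUB1A array (adjusted p of 0.0864 and 0.180) and with only these groups in the fit (adjusted p = 0.0681).

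WRKY42, the group IIb relative of WRKY6 that is known as a regulator of phosphate supply, had 5.93 and 5.73 in 35:SUB1A seedlings, against 5.92 and 5.56 in WT seedlings. The groups overlapped, and the difference of 0.09 ± 0.12 had a 95% interval of -0.17 to 0.36. WRKY20 had 8.97 on both 35:SUB1A arrays, against 9.10 and 8.96 in WT seedlings. It differed by -0.06 ± 0.07, with an interval of -0.22 to 0.10. These intervals do not reach the differences measured for WRKY6 and WRKY53. The WRKY42 values lay near the lower quartile of the arrays, where the response of a probe set is compressed. Its interval therefore does not exclude a larger change of the transcript. Within group IIb, WRKY6 and WRKY47 were thus called and WRKY42 was not; whether the genes of the group differ in response was not tested.

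**Figure D1:**
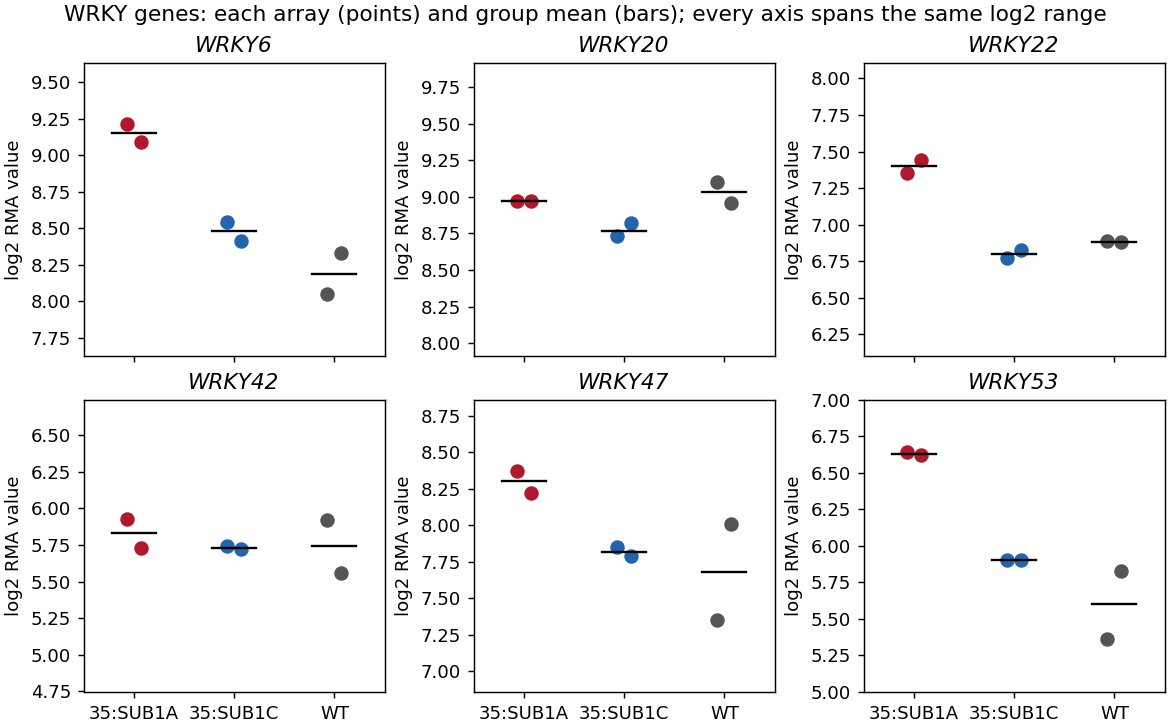
Log2 RMA value (vertical axis) of each WRKY gene on every array, with 35:SUB1A, 35:SUB1C and WT from left to right; points are arrays, bars are group means, and every panel spans an equal log2 range. WRKY6, WRKY22, WRKY47 and WRKY53 have both 35:SUB1A points above all other points, and the WT points of WRKY47 and WRKY53 are the most spread.

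The WT replicates of several WRKY genes were further apart than those of most probe sets. The absolute difference between WT arrays was 0.66 for WRKY47, 0.47 for WRKY53, 0.36 for WRKY42 and 0.28 for WRKY6, where the median over all probe sets was 0.08 and the 90th percentile 0.23. Only 0.237% of probe sets differed more than WRKY47 did between the WT arrays, and 0.778% more than WRKY53. WT replicate 2 was the higher array for WRKY6, WRKY47 and WRKY53 and the lower for WRKY42. None of the 6 genes exceeded the 90th percentile between the 35:SUB1A arrays (0.20 over all probe sets) or between the 35:SUB1C arrays (0.18).

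The comparison of 35:SUB1C with WT asked the same of SUB1C, and it uses the same WT arrays. In the limma fit 0 of 6 WRKY genes were called, where 4.71% of all probe sets were called. At an unadjusted p under 0.05 there were 3 of 6, WRKY6, WRKY53 and WRKY20, against 20.6% of all probe sets. The median difference over the 6 genes was 0.07, and 3 differences were above 0 before rounding and 3 below.

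WRKY6 had 8.54 and 8.41 in 35:SUB1C seedlings, against 8.05 and 8.33 in WT seedlings. Both 35:SUB1C arrays lay above both WT arrays, by little, and the difference of 0.29 ± 0.10 had an adjusted p of 0.144. Omitting WT replicate 1 gave 0.15 and omitting WT replicate 2 gave 0.43, neither past the threshold. WRKY53 had 5.90 on both 35:SUB1C arrays, against 5.36 and 5.83 in WT seedlings. The groups did not overlap here either, and the difference of 0.30 ± 0.13 had an adjusted p of 0.224. Without WT replicate 2 the WRKY53 difference was 0.54 with an adjusted p of 0.0188, and without WT replicate 1 it was 0.07 with an adjusted p of 0.632.

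WRKY20, the group I gene, had 8.73 and 8.82 in 35:SUB1C seedlings, against 9.10 and 8.96 in WT seedlings. Its 35:SUB1C arrays lay below both WT arrays, and the difference of -0.26 ± 0.07 had an adjusted p of 0.0773. WRKY22 had 6.77 and 6.83 in 35:SUB1C seedlings, against 6.89 and 6.88 in WT seedlings. Both 35:SUB1C arrays lay below both WT arrays. The difference of -0.08 ± 0.06 had a 95% interval of -0.23 to 0.06, which does not reach the 0.51 measured in 35:SUB1A seedlings.

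WRKY47 had 7.85 and 7.79 in 35:SUB1C seedlings, both between the WT values of 7.35 and 8.01. Its difference was 0.14 ± 0.18, and it was 0.47 with an adjusted p of 0.0468 without WT replicate 2 and -0.19 without WT replicate 1. WRKY42 had 5.74 and 5.72 in 35:SUB1C seedlings, also between its WT values of 5.92 and 5.56, with a difference of 0.00 ± 0.12. Of the 6 genes, 4 had 35:SUB1C arrays outside the WT range, where 51.2% of all probe sets did.

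**Figure D2:**
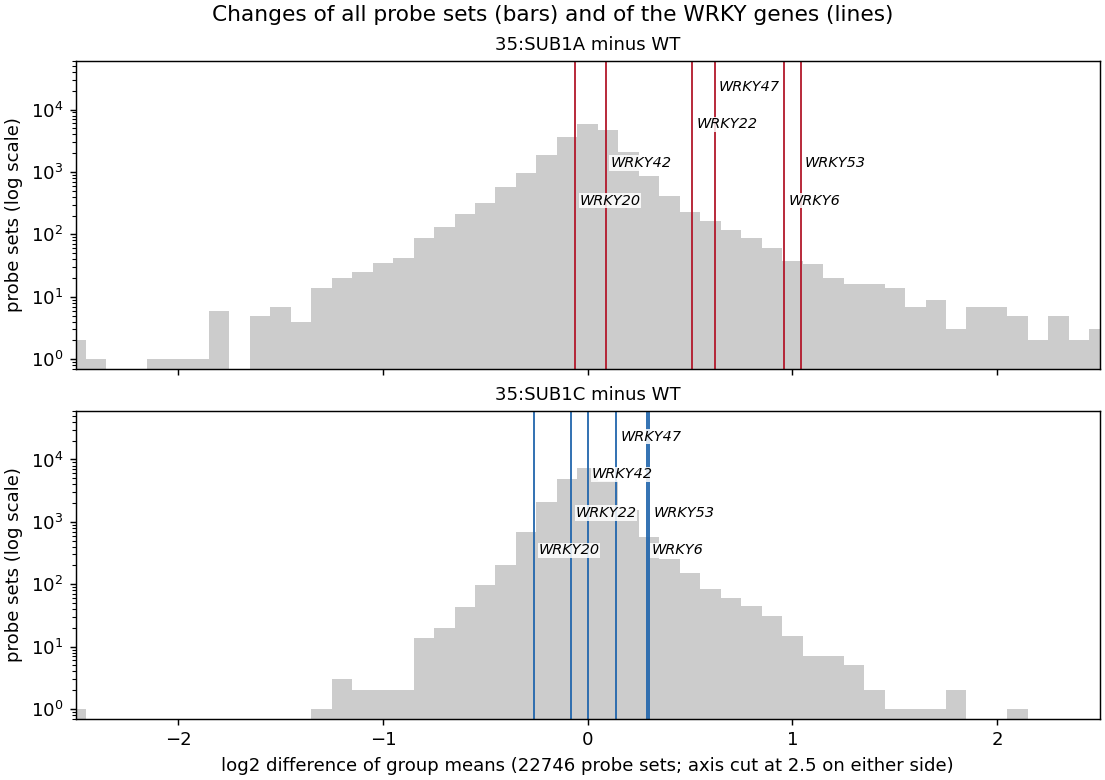
Number of probe sets (log axis) by log2 difference of group means, for 35:SUB1A minus WT above and 35:SUB1C minus WT below, with the 6 WRKY genes as lines. In the upper panel 4 WRKY genes lie between 0.51 and 1.04, and in the lower panel all 6 lie between -0.26 and 0.30.

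The direct comparison of 35:SUB1A with 35:SUB1C asked which WRKY transcripts differ between the transgenic groups, without the WT arrays in the difference itself. WRKY53, WRKY6 and WRKY22 were higher in 35:SUB1A seedlings, so 3 of 6 were higher where 5.57% of all probe sets were, and none was lower. WRKY53 was higher by 0.73 ± 0.13, or 1.66-fold, with an adjusted p of 0.00802. WRKY6 was higher by 0.67 ± 0.10, or 1.59-fold, with an adjusted p of 0.00387. WRKY22 was higher by 0.60 ± 0.06, or 1.51-fold, with an adjusted p of 0.000874, which was the smallest of the 6.

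WRKY47 differed by 0.48 ± 0.18 between 35:SUB1A and 35:SUB1C seedlings with an adjusted p of 0.128. Its 35:SUB1A arrays, at 8.37 and 8.22, lay above the 35:SUB1C arrays, at 7.85 and 7.79, and with only these groups in the fit the adjusted p was 0.00746, since the spread of WT then left the error. WRKY20 differed by 0.20 ± 0.07 and WRKY42 by 0.10 ± 0.12, neither past the threshold. In 5 of 6 genes both 35:SUB1A arrays were above both 35:SUB1C arrays, where 30.7% of all probe sets were. The call of WRKY53 ended without 35:SUB1C replicate 1 (adjusted p = 0.0593) and without 35:SUB1C replicate 2 (adjusted p = 0.0562), at a difference of 0.73 both times.

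The mean levels of WRKY6 and WRKY53 therefore ran 35:SUB1A, 35:SUB1C, WT from high to low, with 35:SUB1A apart from both others and 35:SUB1C and WT not separated by the test. WRKY47 had the same order of means, at 8.30 in 35:SUB1A, 7.82 in 35:SUB1C and 7.68 in WT, with only 35:SUB1A and WT separated. The WRKY22 means were 7.40 in 35:SUB1A, 6.80 in 35:SUB1C and 6.88 in WT, so that 35:SUB1C was at the low end, and 35:SUB1A stood apart from both. No pair of groups was separated for WRKY20 or WRKY42.

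**Figure D3:**
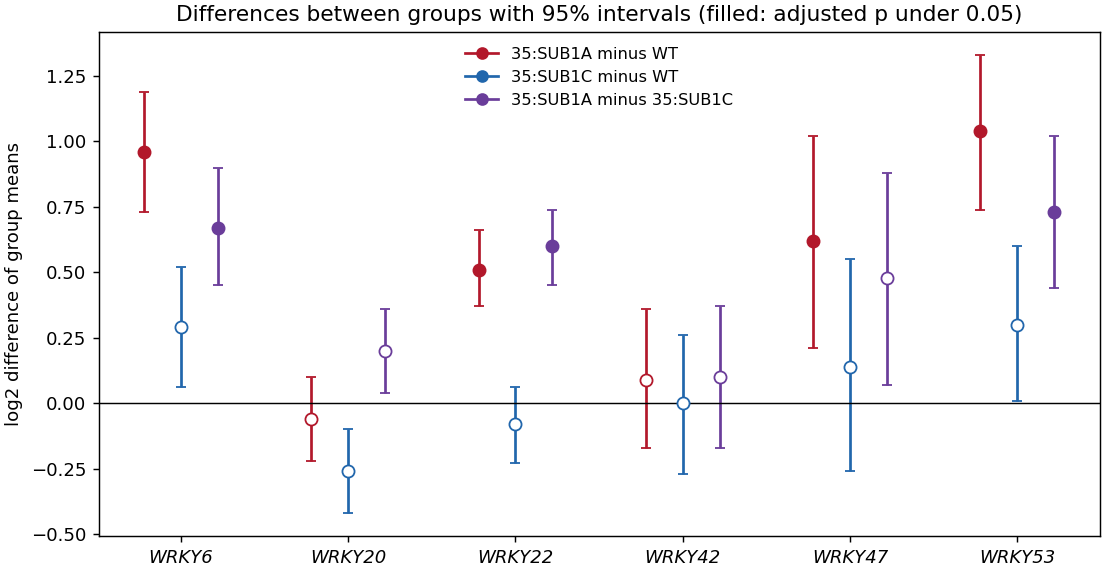
Log2 difference of group means (vertical axis) for each WRKY gene in the 3 comparisons, with 95% intervals that are not adjusted for the number of tests; filled points have an adjusted p under 0.05. WRKY6, WRKY22 and WRKY53 are filled for 35:SUB1A against both other groups, WRKY47 only for 35:SUB1A minus WT (0.62), and no point is filled for 35:SUB1C minus WT.

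Leaving out 1 array at a time left the 35:SUB1A minus WT calls of WRKY6, WRKY22 and WRKY53 in place. In such a fit the group with a lone array adds nothing to the estimate of spread and is assumed to vary like the others, so these fits show how far a value rests on 1 array and are no independent support. WRKY6 ranged from 0.82 to 1.10, WRKY53 from 0.80 to 1.27 and WRKY22 from 0.47 to 0.56 in these fits and the other alternatives.

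**Figure D4:**
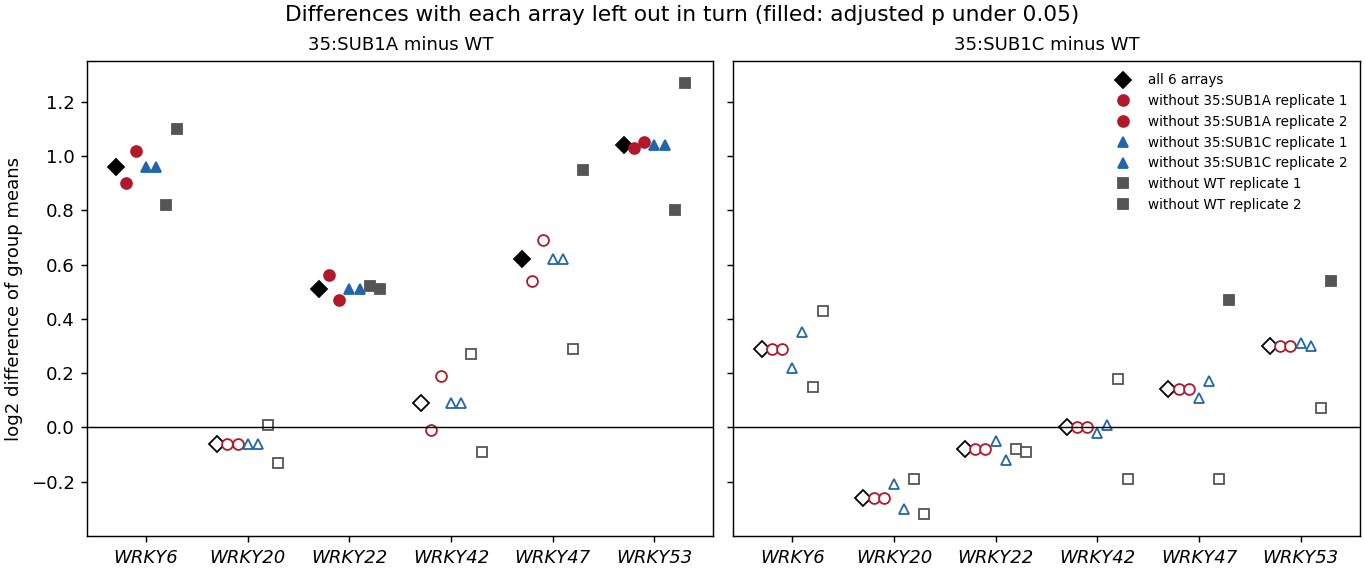
Log2 difference of group means for each WRKY gene with all 6 arrays and with each array left out, for 35:SUB1A minus WT on the left and 35:SUB1C minus WT on the right; symbols run from left to right in the legend's order, and filled symbols have an adjusted p under 0.05. WRKY6, WRKY22 and WRKY53 stay filled on the left, WRKY47 does not, and on the right only WRKY47 (0.47) and WRKY53 (0.54) without WT replicate 2 are filled.

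Other genes were read from lists, and whether any of them acts with the WRKY genes in these seedlings was not tested. A gene counts as measured where the annotation gives it alone to a probe set. Counts in these lists stand beside 20.2% of all probe sets called for 35:SUB1A minus WT (9.47% higher) and 4.71% for 35:SUB1C minus WT, and lists of 1 to 9 measured genes are too short for a share to be read from them. How often a call ended is counted over the 13 distinct alternative fits of each comparison. Of 11 listed pattern receptors and their kinases 2 were measured, and both rose in 35:SUB1A seedlings, while neither passed in 35:SUB1C seedlings. BIK1, a cytoplasmic kinase that relays signals from immune receptors, had 10.34 and 10.38 in 35:SUB1A seedlings, against 9.28 and 9.53 in WT seedlings. That is a difference of 0.96 ± 0.09 with an adjusted p of 0.000246, while in 35:SUB1C seedlings, at 9.45 and 9.52, BIK1 differed from WT by 0.08 ± 0.09. The WT arrays of BIK1 differed by 0.26, with WT replicate 1 the lower, as for WRKY6, WRKY47 and WRKY53. Over the alternative fits its 35:SUB1A minus WT difference ranged from 0.83 to 1.08. BIK1 was also higher in 35:SUB1A than in 35:SUB1C seedlings, by 0.88 ± 0.09 with an adjusted p of 0.000603.

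EFR, the receptor for bacterial elongation factor Tu, had 7.06 and 7.05 in 35:SUB1A seedlings, against 6.42 and 6.84 in WT seedlings, a difference of 0.43 ± 0.12 with an adjusted p of 0.0381. It was 0.21 with an adjusted p of 0.104 without WT replicate 1, the WT array that was also the lower one for WRKY6, WRKY47 and WRKY53, and the call also ended without either 35:SUB1A array (adjusted p of 0.119 and 0.134) and with only these groups in the fit (adjusted p = 0.0647). EFR was higher in 35:SUB1A than in 35:SUB1C seedlings by 0.47 ± 0.12 with an adjusted p of 0.0385, a call that ended without any 1 of those 4 arrays (adjusted p of 0.124 to 0.181).

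VQ proteins bind WRKY factors and change their activity, and 6 of 16 loci entered under that heading from general knowledge were measured. RefSeq names IKU1 among the measured ones and gives the other 5 by locus tag alone, so that they are VQ genes is not annotated in the sources used here. AT1G78410, 1 of these 5, rose by 0.53 ± 0.09 in 35:SUB1A seedlings, with 5.63 and 5.80 against 5.28 and 5.09 in WT seedlings and an adjusted p of 0.00435. It was also higher than in 35:SUB1C seedlings, by 0.35 ± 0.09, a call that ended in 5 of 13 alternative fits. The other measured loci of the list did not pass in any comparison. IKU1, a VQ gene known from seed size control, differed from WT by 0.10 ± 0.06 in 35:SUB1A seedlings and by -0.05 ± 0.06 in 35:SUB1C seedlings.

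MAP kinase, calmodulin-like and plant U-box genes were read by symbol. Of 2 MAP kinase genes, ATMPK13 fell by 0.34 ± 0.08 in 35:SUB1C seedlings with an adjusted p of 0.0453, a call that ended in 8 of 13 alternative fits, and ATMPK8 did not pass in any comparison. The medians of these genes were -0.12 for 35:SUB1A minus WT and -0.16 for 35:SUB1C minus WT. Of 7 calmodulin-like genes, which encode calcium sensors, 1 rose in 35:SUB1A seedlings and 1 in 35:SUB1C seedlings. These were CML41 at 0.45 ± 0.13 in 35:SUB1A seedlings and CML42 at 0.38 ± 0.08 in 35:SUB1C seedlings, with adjusted p of 0.0363 and 0.0417, and each call ended in 4 of 13 alternative fits. CML42 was lower in 35:SUB1A than in 35:SUB1C seedlings, at -0.43 ± 0.08, a call that ended in 2 of 13. The medians of the calmodulin-like genes were -0.03 for 35:SUB1A minus WT and 0.06 for 35:SUB1C minus WT.

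Among 9 plant U-box genes, PUB22 and PUB23, which encode related ubiquitin ligases that dampen immune signalling, moved in opposite directions in 35:SUB1A seedlings. The other measured genes of this list did not pass in any comparison, among them PUB24, which differed from WT by -0.01 ± 0.07 in 35:SUB1A seedlings. PUB22 had 8.33 and 8.43 in 35:SUB1A seedlings, 8.29 and 8.24 in 35:SUB1C seedlings, and 7.91 and 7.89 in WT seedlings. It rose by 0.48 ± 0.07 in 35:SUB1A and by 0.36 ± 0.07 in 35:SUB1C seedlings, the second call ending in 4 of 13 alternative fits. PUB23 had 7.31 and 7.43 in 35:SUB1A seedlings, against 8.08 and 8.02 in WT seedlings, and fell by 0.68 ± 0.09 with an adjusted p of 0.00107. In 35:SUB1C seedlings PUB23 differed from WT by -0.16 ± 0.09 without passing. It was lower in 35:SUB1A than in 35:SUB1C seedlings, at -0.51 ± 0.09, a call that ended in 1 of 13, and the list's median was 0.01 for 35:SUB1A minus WT and 0.02 for 35:SUB1C minus WT.

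**Figure D5:**
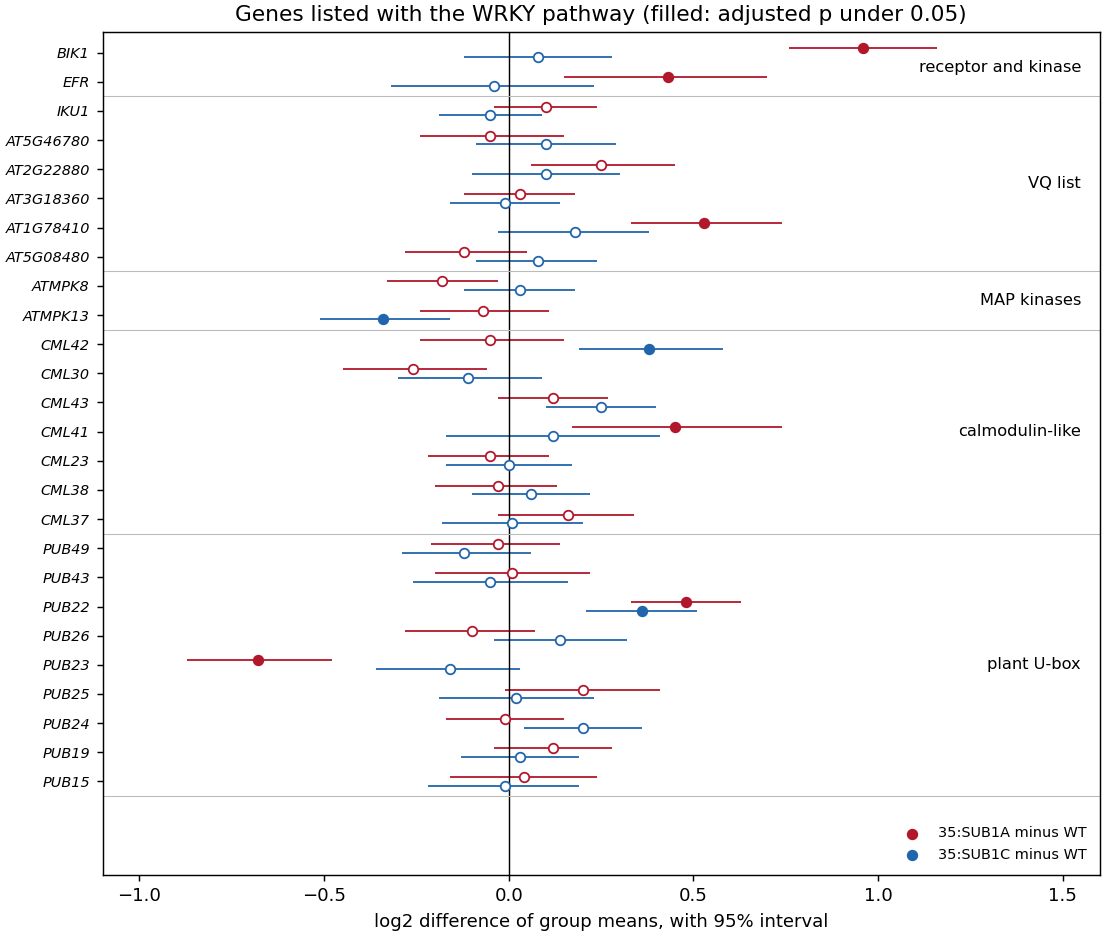
Log2 difference of group means with 95% interval (horizontal axis) for the measured genes of 5 lists, 35:SUB1A minus WT in red above 35:SUB1C minus WT in blue; filled points have an adjusted p under 0.05. BIK1 (0.96) and PUB23 (-0.68) are the outermost points, both for 35:SUB1A minus WT, and most genes lie near 0.

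Markers of root, green tissue and seed were also read, and their part in the WRKY results was not tested. Of 10 listed root markers 3 were measured. EXPA7 and EXPA18, root hair expansin genes, each rose by 0.29 ± 0.08 in 35:SUB1A seedlings, and by 0.78 ± 0.08 and 0.75 ± 0.08 in 35:SUB1C seedlings, while PYK10 differed by 0.11 ± 0.06 and 0.09 ± 0.06. EXPA7 and EXPA18 were lower in 35:SUB1A than in 35:SUB1C seedlings, at -0.49 ± 0.08 and -0.46 ± 0.08, calls that ended in 1 and 2 of 13 alternative fits. LHCB4.2, the 1 measured of 8 green tissue markers, fell by 0.35 ± 0.07 in 35:SUB1A seedlings. The 35:SUB1A calls of EXPA7, EXPA18 and LHCB4.2 ended in 3, 4 and 2 of 13 alternative fits. M17, the 1 measured of 10 seed markers, had 8.18 and 8.43 in 35:SUB1A seedlings, against 4.00 and 4.30 in WT seedlings. That is a difference of 4.16 ± 0.11 with an adjusted p of 7.39e-07, larger than that of any WRKY gene. In 35:SUB1C seedlings M17 differed from WT by 0.46 ± 0.11 without passing (adjusted p = 0.0602). Its WT values lay near the lowest values of the WT arrays, 3.85 and 3.78.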

How the data were processed

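The deposited table holds log2 summaries of Affymetrix ATH1 probe sets from the authors' RMA run (submitters' processing notes; the sources used here give no version). RMA normalizes arrays to a common distribution, so a shift of all transcripts cannot be seen. Of 22810 probe sets, 64 controls were left out. Sample titles gave the groups.

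Each of the other 22746 probe sets entered 1 linear model over 6 arrays (limma 3.58.1, R 4.3.3; lmFit, then eBayes with 3 residual degrees of freedom and 5.37 prior ones). Tests were two-sided and adjusted by Benjamini-Hochberg over this whole table, and calls were made at adjusted p under 0.05. The SE pools the spread of the 3 groups. Replicate numbers are shared by the groups, but same-numbered arrays did not deviate together (correlations of -0.01, 0.04 and 0.02), so no block was used. The probe annotation lists a single gene for 13513 probe sets, several for 503 and none for 8730.

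All members are named. List genes are named where a comparison called them, and IKU1, ATMPK8, PUB24 and PYK10 are named although no comparison did. The WRKY genes, the lists and the tests were chosen with earlier results of these data known, and the MAP kinase, calmodulin-like and plant U-box lists by symbol after it was seen which genes the annotation names. The lists of the canonical MAP kinase cascade and of reported WRKY targets had 0 genes that the annotation used here gives alone to a probe set, and were not analysed; their genes may lie among the probe sets with no listed gene. Alternatives were a replicate block, a fit per pair of groups, quantile normalization once more, centring of arrays on the median, dropping dim or unnamed probe sets, moderation with a trend or made robust, weights per array, a stricter threshold and the omission of each array.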

Additional observations from a re-analysis of the deposited data

Results flagged for a closer look

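WRKY22 was the member for which both 35:SUB1A arrays lay above and both 35:SUB1C arrays below the 2 WT arrays. The difference between the transgenic groups, 35:SUB1A minus 35:SUB1C, was 0.60 ± 0.06 and had an adjusted p of 0.000874 in the limma fit, while 35:SUB1C minus WT, -0.08 ± 0.06, did not pass (adjusted p = 0.521). Groups of 2 arrays cannot be searched for single outlying arrays.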

How the results depend on the processing

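Of the 16 alternatives, the stricter threshold uses the fit as reported, and leaving out either array of the group outside a comparison repeats the fit of only the 2 groups compared, which leaves 13 distinct fits for each comparison. The 35:SUB1A minus WT calls of WRKY6, WRKY22 and WRKY53 held in all 13, with adjusted p of at most 0.0043, 0.00917 and 0.00857. The call of WRKY47 ended in 4 of 13, among them the fit of only the 2 groups (adjusted p = 0.0681), and at the stricter threshold of 0.01. Leaving out 1 array gave 3 to 4 WRKY genes called for 35:SUB1A minus WT, 0 to 2 for 35:SUB1C minus WT (0 to 2 higher) and 2 to 4 for 35:SUB1A minus 35:SUB1C. With the replicate number as a block, 4, 0 and 3 WRKY genes were called in these comparisons, as without it, and 19.7%, 4.51% and 11.5% of all probe sets. The share of all probe sets called was 10.3%, 1.3% and 5.24% at adjusted p under 0.01. It ranged from 11.9% to 17.4%, from 0.84% to 3.88% and from 4.74% to 13.3% with 1 array left out, where fewer arrays enter the fit. No called difference of a WRKY gene changed sign. The mean of several probe sets was not run, since each gene has 1, and no pseudocount was needed for log2 values.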

Other observations

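ZAP1 (AT2G04880), for which RefSeq gives the synonym WRKY1, has its own probe set under a symbol outside the rule. It had 8.95 and 8.91 in 35:SUB1A seedlings, 8.86 and 8.84 in 35:SUB1C seedlings, and 9.07 and 9.0 in WT seedlings. Both transgenic groups lay below WT, by -0.11 ± 0.06 and -0.19 ± 0.06, and neither difference passed (adjusted p of 0.262 and 0.134 from limma).

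The nearest measured gene on each side of every WRKY gene, in RefSeq's order, was read as a description chosen after seeing the data. Of these 12 genes, 1 was higher and 2 were lower in 35:SUB1A than in WT seedlings, and 1 was higher and 1 lower in 35:SUB1C than in WT seedlings. Between the transgenic groups, 1 was higher and 2 were lower in 35:SUB1A than in 35:SUB1C seedlings. Over all probe sets 20.2%, 4.71% and 12.1% were called in these comparisons, and 12 genes are too few for a share to be read from them. AT1G62290, which directly precedes WRKY6 without overlapping it, had 10.66 and 10.76 in 35:SUB1A seedlings, 10.11 and 10.04 in 35:SUB1C seedlings, and 9.83 and 9.73 in WT seedlings. Its differences from WT were 0.93 ± 0.07 in 35:SUB1A (adjusted p = 9.86e-05) and 0.29 ± 0.07 in 35:SUB1C (adjusted p = 0.0548), beside 0.96 ± 0.10 and 0.29 ± 0.10 for WRKY6. AT1G62290 was also higher in 35:SUB1A than in 35:SUB1C seedlings, by 0.63 ± 0.07 (adjusted p = 0.00104 from limma). The gene on the other side of WRKY6, AT1G62310, differed by -0.20 ± 0.06 and -0.23 ± 0.06 and did not pass.

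The chromatin gene 3xHMG-box2 lies next to WRKY53, and the RefSeq models of these genes overlap. It had 9.19 and 9.14 in 35:SUB1A seedlings, 9.26 and 9.43 in 35:SUB1C seedlings, and 9.93 and 9.99 in WT seedlings. It fell by 0.80 ± 0.07 in 35:SUB1A (adjusted p = 0.000263) and by 0.62 ± 0.07 in 35:SUB1C (adjusted p = 0.00398), whereas WRKY53 rose in 35:SUB1A and did not pass in 35:SUB1C. Whether the probes of either gene fall in the shared stretch was not tested. Next to WRKY42, AT4G04460 rose by 0.44 ± 0.06 in 35:SUB1C seedlings and differed by -0.11 ± 0.06 in 35:SUB1A seedlings. The 35:SUB1C call ended without 35:SUB1C replicate 1 and without 35:SUB1C replicate 2, with adjusted p of 0.0801 and 0.0717. AT4G23820, on the other side of WRKY53, fell by 0.30 ± 0.08 in 35:SUB1A seedlings, a call that ended in 2 of 13 alternative fits. AT4G04460 and AT4G23820 were both lower in 35:SUB1A than in 35:SUB1C seedlings, at -0.54 ± 0.06 and -0.38 ± 0.08 (adjusted p of 0.00141 and 0.014 from limma). Those calls ended in 0 and 3 of 13 alternative fits.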
